A study of Homo sapiens with 51 samples.

Results

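AKR1C1, AKR1C2, AKR1C3, AKR1B10, ALDH3A1, ALDH1A1, NQO1, GCLM, TXNRD1 and HMOX1 are 10 genes of detoxification and redox defence that are widely described as targets of the transcription factor NRF2. They were taken by symbol, and 10 of 10 were found among the 25421 gene symbols of the count table. They were selected on the measured counts of AKR1C2 and ALDH3A1, which differed between control groups of the PK45H line. Those control contrasts are therefore given as values without a test, and they support nothing here. The other 8 genes are listed with them.

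NRF2, encoded by NFE2L2, is held in the cytoplasm and marked for destruction by KEAP1. Oxidants and electrophiles release it, and together with a small MAF protein it binds the antioxidant response element of its target genes. In pancreatic ductal adenocarcinoma (PDA) this pathway is known for its link to drug resistance. The AKR1C enzymes are aldo-keto reductases that reduce steroids, prostaglandins and reactive carbonyls, and AKR1B10 reduces retinal and other aldehydes. ALDH3A1 and ALDH1A1 are aldehyde dehydrogenases, the second of which also makes retinoic acid.

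The series compared 5 established human PDA cell lines, with 51 libraries in 17 groups of 3. HPAFII and PATU8988S were sequenced untreated only. KP4, PANC1 and PK45H, which the labels call morphogenic, were sequenced in 5 groups each: untreated, mCherry, mCherry + M2rtTA, OVOL2 and OVOL2 + M2rtTA. OVOL2 is a zinc-finger transcription factor known for maintaining epithelial identity, and mCherry is a fluorescent protein delivered in the same way as the control. Both were carried as open reading frames by lentivirus at a multiplicity of infection of 2 in 8 µg/ml polybrene. M2rtTA, the reverse tetracycline transactivator that drives doxycycline-inducible promoters, was co-transduced in the groups that name it. From the following day, transduced wells were kept in doxycycline (0.6 µg/ml) with puromycin selection (2.5 µg/ml), so mCherry and OVOL2 groups shared both agents. The labels do not say which of these agents untreated wells received. RNA was collected after 6 days. The libraries were PLATE-seq, in which cDNA is barcoded well by well and pooled, from 100 ng of total RNA. The labels describe triplicate wells of each transduction and nothing on separate passages, so p-values measure the spread between wells.

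The AKR1C genes lie next to each other on chromosome 10 (GRCh38, GENCODE release 29): AKR1C1 at 4963253 to 4983283 on the plus strand, AKR1C2 at 4987400 to 5018031 on the minus strand, and AKR1C3 at 5035354 to 5107686 on the plus strand. Of the 31-base words in the coding transcripts of AKR1C2, 59.5% also occurred in transcripts of another gene, and 58.7% in those of AKR1C1. In the last 300 bases of its transcripts the share was 76.8%. It was 33.5% for AKR1C1 and 14.8% for AKR1C3 over whole transcripts, and 0 for ALDH3A1 and ALDH1A1. Over the 300 bases around the transcription start listed in RefSeq (GRCh38.p14), 98.6% of aligned bases were identical between AKR1C1 and AKR1C2, and 79.7% between AKR1C2 and the first AKR1C3 start. The stretches below lie upstream of the RefSeq starts and hold no exon base of the GENCODE annotation. They are read 5′ to 3′ on the gene's strand and are shown because they make that likeness visible. The AKR1C2 stretch lies inside the longer GENCODE span of its gene. Capitals mark bases without a partner in the other stretch.
AKR1C1, chr10:4963165-4963252, plus strand: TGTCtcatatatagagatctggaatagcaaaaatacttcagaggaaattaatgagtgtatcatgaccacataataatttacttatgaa
AKR1C2, chr10:5004024-5004107, minus strand: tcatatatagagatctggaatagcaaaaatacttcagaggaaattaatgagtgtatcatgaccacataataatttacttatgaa
The stretches differed by 0 substituted bases and 4 unpaired bases. The unpaired bases lie at the 5′ end of the AKR1C1 stretch, past the end of the AKR1C2 window, so they show no difference between the genes. The transcripts share words, so the split of counts between AKR1C1 and AKR1C2 is uncertain. The sum of the AKR1C1, AKR1C2 and AKR1C3 rows is therefore given beside each gene.

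The core of the antioxidant response element, TGACNNNGC on either strand, was searched in the same RefSeq windows, which reach from 250 bases before to 50 bases after each start. It occurred in 13.3% of 35116 windows. Among the 10 genes it was found upstream of GCLM (34 to 26 bases before the start) and at the 2 listed starts of TXNRD1 (99 to 91 and 102 to 94 bases before), with another TXNRD1 match reaching the start itself. The windows of AKR1C1, AKR1C2, AKR1C3, ALDH1A1 and NQO1 had no match to these letters. No window of AKR1B10 was among those searched, and no absence is claimed for AKR1B10, ALDH3A1 or HMOX1. The 29-base stretches around the matches, with the match in capitals, show where the core lies in the members that carry it.
GCLM, chr1:93909446-93909474, minus strand: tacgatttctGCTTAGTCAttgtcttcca
TXNRD1, chr12:104215670-104215698, plus strand: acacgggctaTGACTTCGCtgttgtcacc
TXNRD1, chr12:104286920-104286948, plus strand: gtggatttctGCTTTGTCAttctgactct
The GCLM match and the second TXNRD1 match read as the reverse complement, GCNNNGTCA. A match is a run of letters and not a measured binding site.

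Library totals ran from 1165399 to 7490556 counts, with a median of 4771717. The shallowest was HPAFII replicate 2, which also stood apart in AKR1C and ALDH3A1, so the HPAFII comparisons of the AKR1C sum, AKR1C2, AKR1C3, AKR1B10 and ALDH3A1 are given with and without it. The duct keratins KRT7, KRT8, KRT18 and KRT19 and EPCAM were counted in all 51 libraries. Of the acinar markers, CPA1 was at 0 in 48 libraries, CELA3A in 41 and PRSS1 in 29, with PRSS1 reaching 7.25 CPM. Of the hepatocyte markers, APOA1 was at 0 in 41, ALB in 26 and TTR in 2, where TTR reached 3.61 CPM. Of the fibroblast markers, LUM was at 0 in 41 and PDGFRB in 26, while DCN (at most 6.35 CPM) and COL1A1 (median 14.2, at most 58.3 CPM) were counted in every library. PTPRC and CD68 of leukocytes were at 0 in 6 and 9 libraries, and PECAM1 of endothelium in 0, with at most 8.04 CPM. The OVOL2 row had 56 counts over the mCherry libraries of the 3 lines and 54 over the OVOL2 libraries. With M2rtTA it had 42 and 178. Whether reads from the viral open reading frame fall in this row is not given in the sources used here, so OVOL2 groups without M2rtTA are named by their labels alone. Levels are CPM (counts scaled to a common library size) on 1 TMM scale over the 51 libraries, given as mean ± SD with n = 3. A log2 fold change carries its standard error (SE), and a call is an adjusted p under 0.05 by edgeR's quasi-likelihood test, with Benjamini-Hochberg adjustment over all genes tested. In these bulk libraries, fewer cells that express a gene and less RNA per cell cannot be told apart.

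In the untreated lines, the AKR1C sum differed widely. It was 450.9, 433.6 and 428.4 CPM in the PATU8988S libraries, a mean of 437.6 ± 11.8. HPAFII had 96.8, 46.2 and 112.5 CPM (85.2 ± 34.7), with replicate 2 the low value. PK45H had 43.4, 37.6 and 36.9 CPM (39.3 ± 3.59). PANC1 was at 5.89 ± 2.56 and KP4 at 4.76 ± 0.974. The PATU8988S, HPAFII and PK45H libraries did not overlap with each other, nor with those of PANC1 and KP4, which did overlap. HPAFII was lower than PATU8988S by a log2 difference of -2.32 (SE 0.31, adjusted p 0.00014), or -2.05 without HPAFII replicate 2. HPAFII was higher than PK45H by 1.15 (SE 0.31, adjusted p 0.013), or 1.42 without replicate 2. That call was lost without HPAFII replicate 3 (0.90, adjusted p 0.067). PANC1 was lower than PK45H by -2.73 (SE 0.34, adjusted p 3.9e-05). KP4 against PANC1 gave -0.33 (SE 0.35, adjusted p 0.56), which did not exceed the spread between libraries. AKR1C2 alone did not separate HPAFII from PK45H (-0.20, SE 0.35, or 0.03 without replicate 2), while AKR1C3 did (2.03, SE 0.35, adjusted p 0.00062, and 6.5e-05 without replicate 2). The untreated PK45H libraries entered the contrast that chose AKR1C2, which is part of the sum. Comparisons of the sum, AKR1C2 and AKR1C3 with PK45H are therefore not free of that choice, and nothing is read from their p-values.

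The make-up of the sum differed between lines. AKR1C3, a reductase that also forms testosterone and prostaglandin F, held 77.5% of the 775 AKR1C counts of HPAFII, between 74.6% and 77.9% in its 3 libraries. In PATU8988S it held 38.8% of 5104 counts and AKR1C2, which inactivates dihydrotestosterone, 56.8%. In untreated PK45H the shares were 42.0% and 49.9% of 741 counts. AKR1C1, which inactivates progesterone, held 3.48% of the sum in HPAFII and 8.10% in PK45H. These shares are of counts and rest on how shared reads were assigned. The liver paralog AKR1C4 had its highest group mean, 3.45 CPM, in HPAFII.

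**Figure D1:**
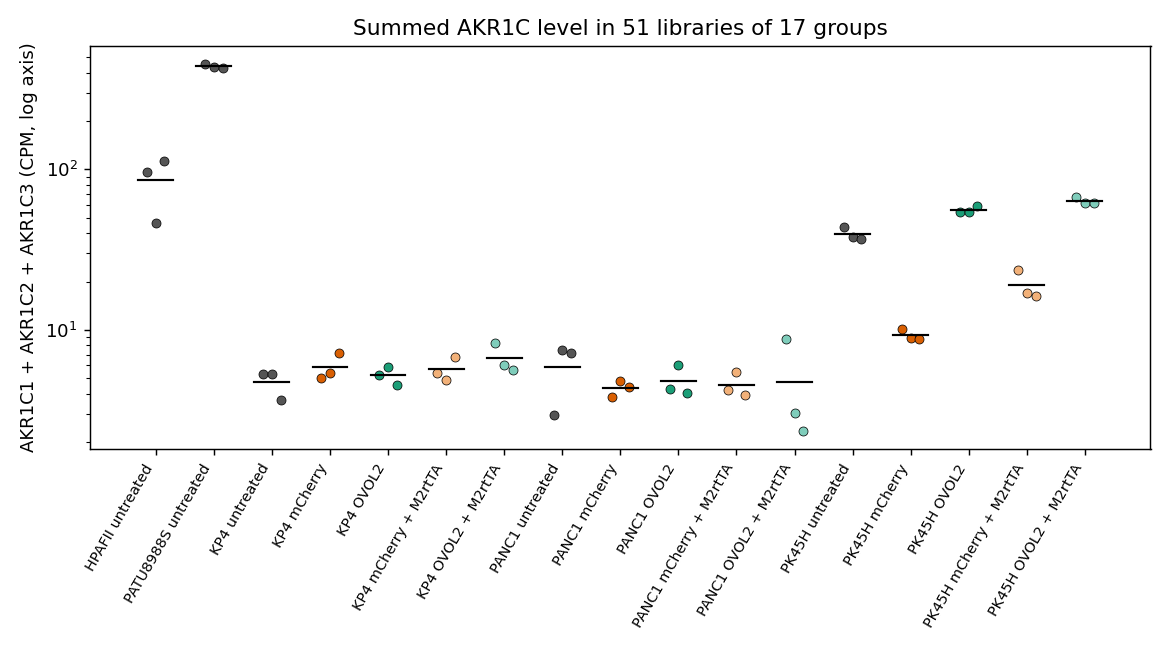
Summed AKR1C level (CPM, log axis) in 51 libraries of 17 groups; points are libraries and the horizontal bar is the mean of 3. PATU8988S lies highest, the KP4 and PANC1 groups all lie between means of 4.34 and 6.65 CPM, and the PK45H groups spread from 9.25 to 63.6 CPM.

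In PK45H, AKR1C levels moved with the transduction. AKR1C2 was 19.3, 20.1 and 19.4 CPM in untreated libraries and 3.44, 5.05 and 2.76 CPM with mCherry. It was 12.1, 7.04 and 6.83 CPM with mCherry + M2rtTA. All mCherry libraries lay below all untreated ones, with the mCherry + M2rtTA libraries between them. The mean with mCherry was 19.1% of the untreated mean, and with mCherry + M2rtTA 44.2%. AKR1C3 was 23.8% and 51.2% of its untreated mean, AKR1C1 49.6% and 56.6%, and the sum 23.5% and 48.2%. As these contrasts chose the genes, no test is given. Of all 13583 genes tested in PK45H, 0.00736% were called between mCherry and untreated and 0.0294% between mCherry + M2rtTA and mCherry, and nothing is read from these shares.

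With OVOL2 in PK45H, AKR1C2 was 27.9, 32.02 and 26.6 CPM against 3.44, 5.05 and 2.76 CPM with mCherry. Each OVOL2 library lay above each mCherry library and also above the untreated ones. The log2 fold change was 2.95 (SE 0.26, adjusted p 1e-05), a 7.74-fold difference. These mCherry libraries are the ones on which AKR1C2 was chosen, so that their low value is built into this comparison. AKR1C3 was 23.6, 19.9 and 29.9 CPM against 4.67, 2.33 and 4.83 CPM, a log2 fold change of 2.55 (SE 0.30, adjusted p 0.00012). The sum went from 9.25 ± 0.723 to 55.8 ± 3.12 CPM (2.56, SE 0.16, adjusted p 7.2e-07). AKR1C2 is part of the sum, and AKR1C3 followed AKR1C2 at r = 0.91 over the 15 PK45H libraries. The same limit therefore holds for AKR1C3 and the sum, and nothing is read from their p-values. The OVOL2 mean of the sum was 142.1% of the untreated mean.

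The comparison with M2rtTA used neither the untreated nor the mCherry libraries of the contrast that chose AKR1C2. Its mCherry + M2rtTA libraries did enter the control contrast that chose ALDH3A1, and their AKR1C2 mean was 44.2% of the untreated mean. The comparison is therefore not free of the choice of genes. AKR1C2 was 31.4, 32.9 and 39.8 CPM with OVOL2 + M2rtTA against 12.1, 7.04 and 6.83 CPM with mCherry + M2rtTA. The groups did not overlap, and the log2 fold change was 2.00 (SE 0.23, adjusted p 6e-05), or 4.01-fold. AKR1C3 was 33.0, 24.6 and 18.7 CPM against 10.5, 7.41 and 7.56 CPM, again without overlap (1.59, SE 0.27, adjusted p 0.0012). The sum rose from 18.9 ± 4.10 to 63.6 ± 2.83 CPM (1.75, SE 0.15, adjusted p 7.7e-06), 161.7% of the untreated mean. The difference between the OVOL2 effects with and without M2rtTA was -0.81 for the sum (SE 0.22, adjusted p 0.080), which missed the threshold and also used the mCherry libraries on which AKR1C2 was chosen. AKR1C1 rested on 4 to 26 counts per PK45H library and was not called in either comparison, with log2 fold changes of 0.65 and 0.93.

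Marker levels also differed between the PK45H groups. The summed level of the 5 duct markers ran from 2580 to 2983 CPM with mCherry and from 4311 to 4687 CPM with OVOL2. With M2rtTA it ran from 1847 to 1985 and from 4616 to 4753 CPM. The 3 acinar markers summed to 0 with mCherry and to between 5.20 and 7.42 CPM with OVOL2, and to at most 0.148 and between 4.74 and 6.08 CPM with M2rtTA. In any library CPA1 and CELA3A reached at most 0.676 and 0.776 CPM, so the higher acinar sums are mostly PRSS1. The 4 fibroblast markers summed to between 7.85 and 7.99 CPM with mCherry + M2rtTA and between 21.3 and 27.0 CPM with OVOL2 + M2rtTA. LUM, PDGFRB and DCN reached at most 0.783, 0.906 and 6.35 CPM in any library. The higher fibroblast sums here and below are therefore mostly COL1A1. The part of all these markers in the AKR1C result was not tested. In KP4 the duct sum ran from 757.4 to 804.7 CPM with mCherry and from 1035 to 1185 CPM with OVOL2, and with M2rtTA from 609.2 to 622.0 and from 939.0 to 1044 CPM. The KP4 fibroblast sum ran from 11.5 to 13.7 and from 18.2 to 22.7 CPM, and with M2rtTA from 10.2 to 20.4 and from 41.2 to 48.5 CPM. In PANC1 the fibroblast sum overlapped without M2rtTA, and with it ran from 17.3 to 27.7 CPM with mCherry and from 41.5 to 60.7 CPM with OVOL2. The PANC1 duct sum overlapped in both comparisons. The part of these markers in the KP4 and PANC1 results on NQO1, HMOX1, ALDH1A1, GCLM and TXNRD1 was not tested.

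**Figure D2:**
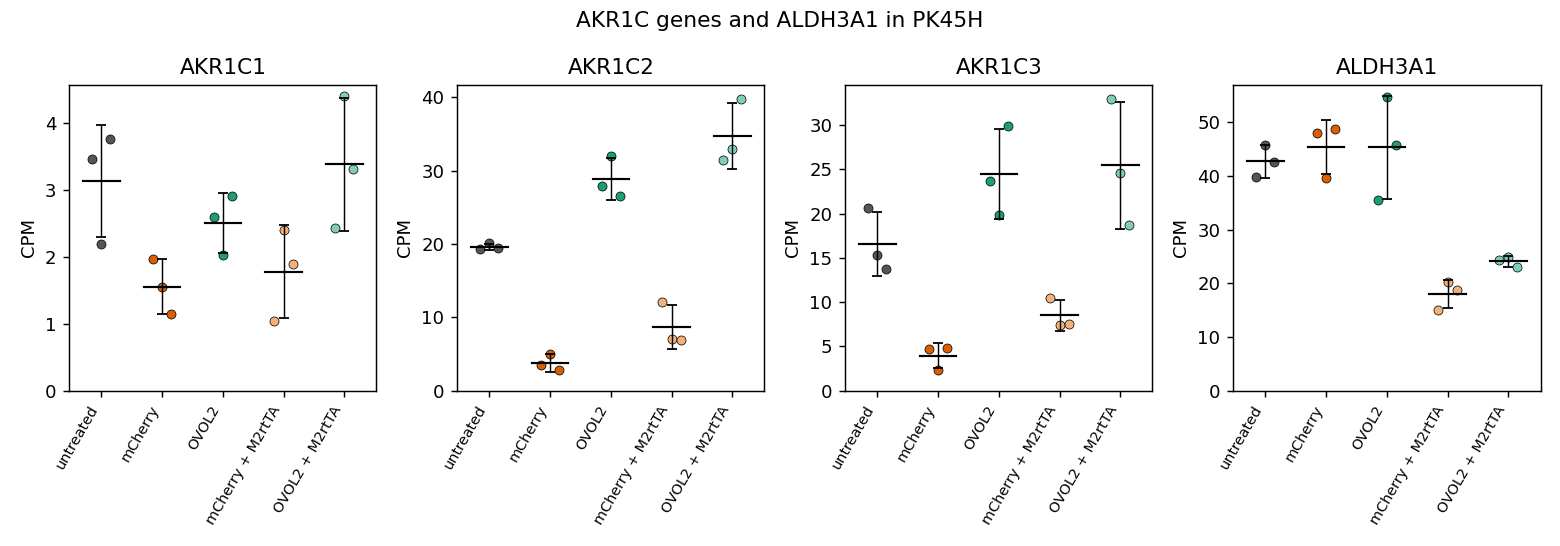
Levels (CPM) of AKR1C1, AKR1C2, AKR1C3 and ALDH3A1 in the 5 PK45H groups; points are libraries, the horizontal bar is the mean and the whisker is 1 SD (n = 3). AKR1C2 and AKR1C3 are lowest with mCherry and highest in the OVOL2 groups, while ALDH3A1 is lower in the M2rtTA groups with either open reading frame.

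In KP4 and PANC1 the AKR1C sum stayed low in every group. Over the 30 libraries of these lines it ran from 2.35 to 8.79 CPM, or 10 to 49 counts, and the 10 group means ran from 4.34 to 6.65 CPM. The log2 fold change of the sum with OVOL2 was -0.15 (SE 0.25) in KP4 and 0.14 (SE 0.45) in PANC1. With M2rtTA it was 0.23 (SE 0.25) and 0.05 (SE 0.45). None of these 4 values was called. AKR1C3 had too few counts to be tested in PANC1. The test of the difference between the 3 lines, by edgeR, gave adjusted p 5.4e-05 for the sum, 0.00027 for AKR1C2 and 0.0048 for AKR1C3 without M2rtTA. These values, and the mean over the lines without M2rtTA, include the PK45H mCherry libraries on which AKR1C2 was chosen, so nothing is read from them. With M2rtTA the test gave 0.0058 for the sum, 0.016 for AKR1C2 and 0.18 for AKR1C3. The PK45H mCherry + M2rtTA libraries in it entered the control contrast that chose ALDH3A1. The AKR1C2 call with M2rtTA was lost without PK45H mCherry + M2rtTA replicate 2 (adjusted p 0.052) or replicate 3 (adjusted p 0.055), and that of the sum when only the compared groups were fitted (0.059). The AKR1C3 difference was called without PANC1 OVOL2 + M2rtTA replicate 1 (adjusted p 0.019). Averaged over the lines, the sum rose by 0.87 (SE 0.17, adjusted p 0.00028) without M2rtTA and by 0.67 (SE 0.17, adjusted p 0.0019) with it. The second mean was 0.42 (adjusted p 0.024) without PANC1 OVOL2 + M2rtTA replicate 1, whose sum of 8.79 CPM stood above the 3.02 and 2.35 CPM of its group.

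AKR1B10 was a PATU8988S gene in this series. Its level there was 203.5, 223.1 and 200.5 CPM, and the other 48 libraries ran from 0 to 13.6 CPM. Untreated HPAFII was next at 9.34 ± 4.47 CPM, lower than PATU8988S by a log2 difference of -4.38 (SE 0.49, adjusted p 3.1e-05 by edgeR), or -4.15 without HPAFII replicate 2. PK45H, KP4 and PANC1, at means of 2.87, 2.14 and 1.61 CPM, were not separated from each other by the pair tests of neighbours. HPAFII against PK45H (1.78, adjusted p 0.019, or 2.00 without HPAFII replicate 2) lost its call without HPAFII replicate 1 (adjusted p 0.100) and without PK45H replicate 1 (0.057) or 2 (0.064). No call was made with OVOL2 in any line. In PK45H the OVOL2 + M2rtTA libraries (3.24, 5.44 and 6.16 CPM) lay above the mCherry + M2rtTA ones (2.96, 1.48 and 2.33 CPM), with a log2 fold change of 1.11 that was not called. Of its 31-base words, 21.7% were shared with AKR1B15, whose highest group mean was 1.41 CPM.

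ALDH3A1, which oxidises medium-chain and aromatic aldehydes, was highest in HPAFII, at 186.9, 52.4 and 192.7 CPM, where replicate 2 was again the low value. Untreated PK45H followed at 42.7 ± 3.04, PATU8988S at 14.0 ± 1.95, KP4 at 3.91 ± 1.65 and PANC1 at 3.17 ± 1.19 CPM. HPAFII exceeded PK45H by 1.78 on the log2 scale (SE 0.38, adjusted p 0.0035), or 2.16 without HPAFII replicate 2, and PATU8988S was lower than PK45H by -1.62 (SE 0.40, adjusted p 0.0064). PATU8988S exceeded KP4 by 1.85 (SE 0.44, adjusted p 0.0043). KP4 and PANC1 did not differ beyond their spread (0.28, SE 0.49). In PK45H its level was 47.9, 39.6 and 48.8 CPM with mCherry and 15.1, 20.2 and 18.7 CPM with mCherry + M2rtTA, the contrast on which it was chosen. With OVOL2 it was 35.5, 54.8 and 45.7 CPM, overlapping the mCherry libraries (log2 fold change -0.03). With OVOL2 + M2rtTA it was 24.3, 24.9 and 23.0 CPM, above the mCherry + M2rtTA libraries on which it was chosen, but not called (0.42). The OVOL2 + M2rtTA mean was 56.3% of the untreated mean and the mCherry + M2rtTA mean 42.2%. In KP4 and PANC1 all libraries lay between 1.38 and 9.14 CPM.

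ALDH1A1, a retinaldehyde dehydrogenase, was a KP4 gene. Untreated KP4 had 62.0, 59.1 and 59.9 CPM. All transduced KP4 groups were lower: mCherry at 36.3, 34.2 and 32.3 CPM, OVOL2 at 34.7 ± 1.45 and mCherry + M2rtTA at 33.4 ± 1.02 CPM. OVOL2 + M2rtTA was lower again, at 11.6, 11.997 and 14.9 CPM, without overlap with any other KP4 group. Against mCherry + M2rtTA the log2 fold change was -1.38 (SE 0.13, adjusted p 6.9e-06), while OVOL2 alone gave 0.03 (SE 0.12). The difference between those effects was -1.41 (SE 0.17, adjusted p 0.0033). It was the 1 member called in that comparison, where 1.43% of all genes were. That call was lost in a fit of all 51 libraries (-1.40, adjusted p 0.17), which gives 1 spread to all lines. For mCherry against untreated KP4 the log2 fold change was -0.81 (SE 0.12). edgeR gave an adjusted p of 0.13 although the groups did not overlap, and DESeq2 gave 0.00021. The other untreated lines were lower, with PATU8988S at 27.5 ± 6.01, HPAFII at 7.91 ± 0.813, PANC1 at 3.86 ± 0.700 and PK45H at 3.25 ± 2.47 CPM. PATU8988S differed from KP4 by -1.11 (adjusted p 0.012), a call lost without PATU8988S replicate 1 (0.056).

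NQO1, a quinone reductase used as a marker of NRF2 activity, was the member that rose with OVOL2 in all 3 lines. In KP4 it was 613.0, 572.3 and 524.7 CPM with OVOL2 against 358.1, 301.1 and 407.2 CPM with mCherry. In PANC1 it was 282.9, 317.4 and 288.2 CPM against 192.1, 169.0 and 185.3 CPM. In PK45H it was 572.5, 499.7 and 450.5 CPM against 235.0, 306.4 and 243.2 CPM. In each line the groups did not overlap. The log2 fold changes were 0.69 (SE 0.15, adjusted p 0.012) in KP4, 0.71 (SE 0.18, adjusted p 0.031) in PANC1 and 0.92 (SE 0.15, adjusted p 0.0019) in PK45H. The KP4 call was lost without KP4 mCherry replicate 1 (adjusted p 0.051) or 2 (0.059). The PANC1 call was lost without any of the 6 libraries compared, with adjusted p between 0.061 and 0.109, though the log2 fold change stayed between 0.66 and 0.78.

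With M2rtTA the NQO1 difference was seen again in other libraries. OVOL2 + M2rtTA against mCherry + M2rtTA gave 496.5 ± 72.0 against 327 ± 38.7 CPM in KP4, a log2 fold change of 0.61 (SE 0.15, adjusted p 0.0079). PANC1 had 366.6 ± 14.1 against 193.3 ± 51.9 CPM (0.96, SE 0.18, adjusted p 0.0025), and PK45H 396.8 ± 30.6 against 179.8 ± 26.9 CPM (1.15, SE 0.15, adjusted p 0.00025). The PK45H mCherry + M2rtTA libraries lay below all PK45H mCherry libraries, and their mean was 68.6% of the untreated mean. They entered the contrast that chose ALDH3A1, and the PK45H mCherry libraries entered both choosing contrasts. NQO1 followed AKR1C2 at r = 0.69 and ALDH3A1 at r = 0.37 over the 15 PK45H libraries. Both PK45H comparisons are therefore not free of the choice of genes. OVOL2 libraries lay above the mCherry libraries without overlap in 6 of the 6 comparisons, those of PK45H included. The mean over the lines was 0.79 (SE 0.09, adjusted p 4e-08) without M2rtTA and 0.90 (SE 0.09, adjusted p 8.7e-10) with it. The test of a difference between lines was not called (adjusted p 0.75 and 0.25). Among untreated lines NQO1 was highest in PATU8988S (725.5 ± 20.3 CPM), then HPAFII (529.4 ± 48.4), KP4 (370.1 ± 22.9), PK45H (262.2 ± 22.0) and PANC1 (158.6 ± 18.3). Each neighbour differed by the pair tests. PATU8988S against HPAFII had the highest adjusted p (0.047), and its call was lost without any 1 of these 6 libraries except HPAFII replicate 3. KP4 against PK45H (0.026) was lost without KP4 replicate 2 or 3 or PK45H replicate 1 or 3.

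HMOX1, heme oxygenase 1, which breaks down heme and is also under control of the repressor BACH1, rose with OVOL2 in KP4 and PANC1. In KP4 it was 76.3, 68.2 and 61.3 CPM with OVOL2 against 36.8, 17.9 and 26.0 CPM with mCherry (log2 fold change 1.36, SE 0.25, adjusted p 0.0054). In PANC1 it was 109.4, 101.3 and 80.6 CPM against 42.2, 45.1 and 32.2 CPM (1.30, SE 0.18, adjusted p 0.00097). The groups did not overlap in either line. PK45H had 16.5, 12.1 and 14.5 CPM against 10.3, 16.3 and 13.6 CPM, overlapping groups with a log2 fold change of 0.08 (SE 0.27).

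With M2rtTA, HMOX1 was 49.5 ± 10.7 against 25.8 ± 7.24 CPM in KP4 (0.95, SE 0.25, adjusted p 0.015). That KP4 call was lost without mCherry + M2rtTA replicate 1 (0.055) or 3 (0.066), or OVOL2 + M2rtTA replicate 3 (0.069). In PANC1 it was 68.84 ± 8.997 against 24.4 ± 2.48 CPM (1.53, SE 0.19, adjusted p 9.6e-05), and in PK45H 24.4 ± 4.72 against 23.6 ± 8.51 CPM (0.05, SE 0.26). The test of a difference between lines gave an adjusted p of 0.016 with M2rtTA and 0.063 without. The first was lost without PK45H mCherry + M2rtTA replicate 1 (0.069) or PK45H OVOL2 + M2rtTA replicate 3 (0.060), and when only the compared groups were fitted (0.075). The second was called without KP4 mCherry replicate 1 (0.023) or PANC1 OVOL2 replicate 3 (0.049), and by DESeq2 (0.032). In PANC1, mCherry was above untreated, 39.8 ± 6.77 against 21.6 ± 4.46 CPM (0.90, SE 0.19, adjusted p 0.047). That call was lost without any of 5 of the 6 libraries, mCherry replicate 3 being the exception. Among untreated lines HMOX1 ran from 15.5 ± 1.43 CPM in PK45H to 27.8 ± 5.22 CPM in KP4, and no neighbours in the order differed. Its call for any difference (adjusted p 0.038) was lost without any 1 of 8 libraries, with adjusted p from 0.053 to 0.144: KP4 replicates 1 and 2, PANC1 replicate 3, PATU8988S replicates 2 and 3, and PK45H replicates 1, 2 and 3. It was also lost with no filter on low counts (0.074).

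**Figure D3:**
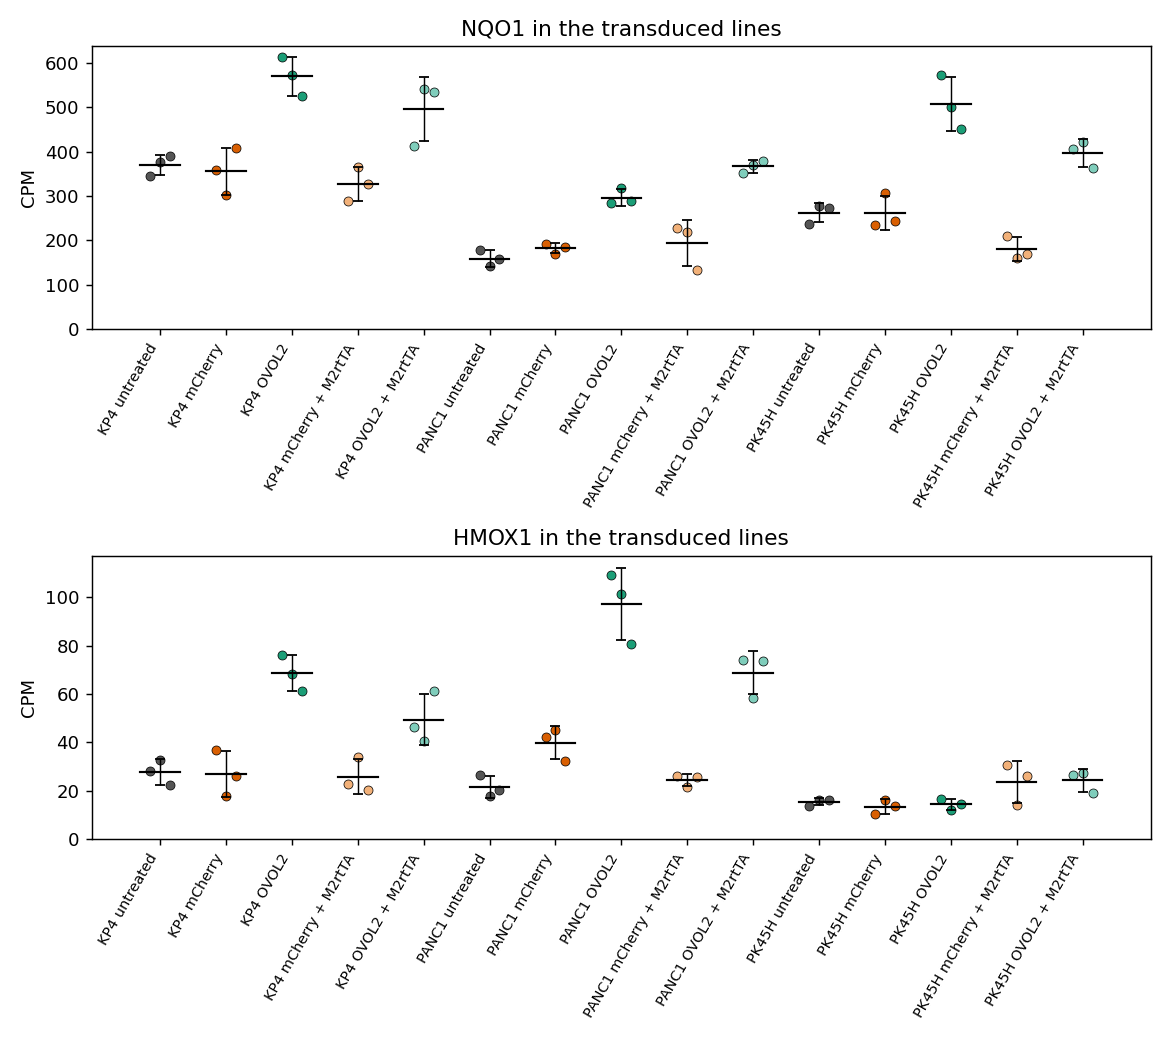
Levels (CPM) of NQO1 and HMOX1 in the 15 groups of KP4, PANC1 and PK45H; points are libraries, the horizontal bar is the mean and the whisker is 1 SD (n = 3). For NQO1 the OVOL2 libraries lie above the matched mCherry libraries in 6 of 6 comparisons, and for HMOX1 in 4, those of KP4 and PANC1.

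GCLM, the modifier subunit of the enzyme that starts glutathione synthesis, was not called higher with OVOL2 in any line. In PK45H it was 32.1, 29.7 and 30.5 CPM with OVOL2 against 53.1, 42.3 and 48.5 CPM with mCherry, without overlap (log2 fold change -0.67, SE 0.16, adjusted p 0.019). That call was lost without mCherry replicate 1 (0.076), OVOL2 replicate 2 (0.072) or OVOL2 replicate 3 (0.065), and with no filter on low counts (0.060). The PK45H mCherry libraries also entered the contrasts that chose AKR1C2 and ALDH3A1. With M2rtTA the GCLM levels of the PK45H groups overlapped, at 23.7 ± 4.92 against 28.4 ± 2.29 CPM. In KP4 with M2rtTA it was 22.2, 18.8 and 25.1 CPM against 33.2, 30.2 and 31.1 CPM, without overlap (-0.51, SE 0.14, adjusted p 0.016). That call was lost without mCherry + M2rtTA replicate 1 (0.069) or OVOL2 + M2rtTA replicate 2 (0.072), and when only the compared groups were fitted (0.071). Over the lines with M2rtTA the mean was -0.28 (SE 0.09, adjusted p 0.021). The adjusted p passed 0.05 without KP4 OVOL2 + M2rtTA replicate 2, PANC1 mCherry + M2rtTA replicate 1, PANC1 OVOL2 + M2rtTA replicate 2 or PK45H OVOL2 + M2rtTA replicate 1, at 0.055 to 0.066, and when only the compared groups were fitted (0.075). Untreated PK45H was highest at 40.5 ± 3.98 CPM and PATU8988S lowest at 19.2 ± 2.88 CPM. In that order the 1 pair of neighbours called was KP4 above PANC1 (0.52, adjusted p 0.037), a call lost without any of their 6 libraries.

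TXNRD1, the thioredoxin reductase of the cytosol, responded differently in the lines with M2rtTA. In KP4 with M2rtTA it was 131.3, 128.8 and 154.5 CPM with OVOL2 against 209.4, 263.4 and 193.3 CPM with mCherry, without overlap (log2 fold change -0.68, SE 0.15, adjusted p 0.0048). In PANC1 it was 136.0, 124.5 and 123.5 CPM against 104.2, 106.5 and 94.9 CPM, also without overlap but not called (0.36, SE 0.12, adjusted p 0.055). DESeq2 called the PANC1 value (0.018), as did edgeR with RLE scaling (0.0495) and with a filter at a mean count of 10 (0.046). PK45H gave 0.04 (SE 0.14). The test of a difference between lines gave adjusted p 0.00082 with M2rtTA and 0.14 without. In the groups without M2rtTA, OVOL2 lay above mCherry without overlap in PANC1 (127.2 ± 6.33 against 108.4 ± 5.43 CPM). PK45H showed the same (121.2 ± 5.50 against 89.7 ± 10.5 CPM), while the KP4 groups overlapped. Neither value was called, with an edgeR adjusted p of 0.0999 in PK45H. A fit of all 51 libraries called the PK45H value (0.041). The PK45H mCherry libraries also lay below the untreated ones, at 71.4% of the untreated mean, while the OVOL2 mean was 96.4% of it. Those mCherry libraries entered the contrasts that chose AKR1C2 and ALDH3A1. TXNRD1 followed AKR1C2 at r = 0.70 over the PK45H libraries. Untreated KP4 had the highest level at 244.1 ± 30.2 CPM and PATU8988S the lowest at 77.1 ± 11.9 CPM. HPAFII and PK45H, at 134.6 ± 8.10 and 125.7 ± 14.2 CPM, did not differ beyond their spread (0.12, SE 0.16). PK45H exceeded PANC1 (adjusted p 0.048), a call lost without any of their 6 libraries.

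**Figure D4:**
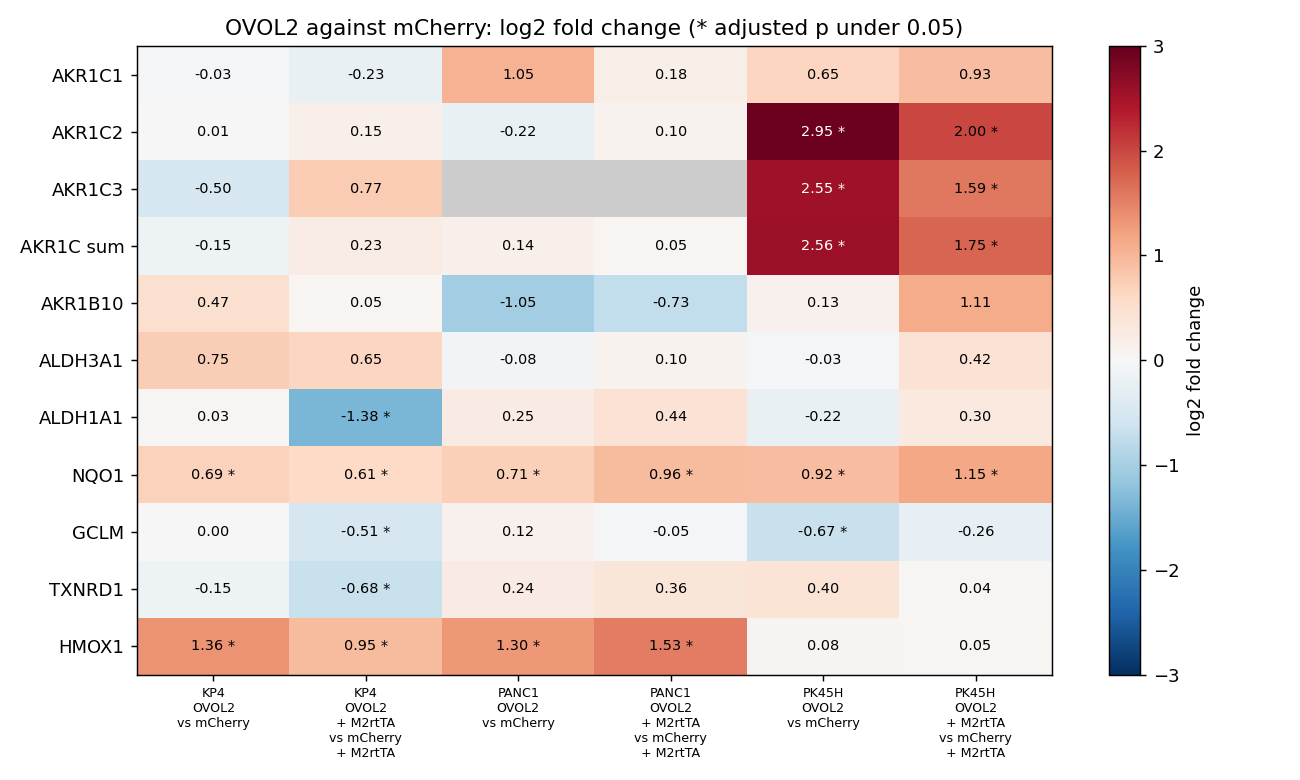
Log2 fold change of OVOL2 against mCherry for the 10 genes and the AKR1C sum (rows) in the 3 lines without and with M2rtTA (columns); an asterisk marks an adjusted p under 0.05, and grey marks AKR1C3 in PANC1, which was not tested. The AKR1C rise is in the PK45H columns, with 2.56 and 1.75 for the sum, and NQO1 is marked in all 6 columns.

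Counted over the 10 genes and read against all genes, the calls were as follows. All 10 passed the filter on low counts except AKR1C3 in PANC1. OVOL2 against mCherry called 2 members in KP4 (both higher) where 6.82% of all genes were called. In PANC1 it called 2 (both higher) against 5.08%, and in PK45H 4 (3 higher, 1 lower) against 8.39%. The PK45H count holds AKR1C2, AKR1C3, NQO1 and GCLM. AKR1C2 is set against the libraries on which it was chosen, and AKR1C3 followed AKR1C2 in PK45H. Nothing is read from the calls of AKR1C2 and AKR1C3. With M2rtTA, KP4 had 5 (2 higher, 3 lower) against 22.4%. PANC1 had 2 (both higher) against 13.9%, and PK45H 3 (all higher) against 15.9%. Those 3 are AKR1C2, AKR1C3 and NQO1, set against the mCherry + M2rtTA libraries that entered the contrast that chose ALDH3A1. That PK45H count is therefore not free of the choice of genes. The mean over lines called 3 of 10 against 18.1% without M2rtTA and 4 of 10 against 32.9% with it. The difference between lines called 2 against 2.74% and 3 against 7.56%. The counts over lines without M2rtTA use the PK45H mCherry libraries too, and those with M2rtTA use the PK45H mCherry + M2rtTA libraries. The change of the OVOL2 effect with M2rtTA called 1 in KP4, 0 in PANC1, where 0.136% of genes were called, and 0 in PK45H, where 1.6% were. The 2 zeros stood also with DESeq2, and over all genes an unadjusted p under 0.05 was seen for 1407 genes in PANC1 and 2391 in PK45H.

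Between the control groups, mCherry against untreated called 0 members in KP4, where 0% of 13662 genes were called and 966 had an unadjusted p under 0.05. DESeq2 called 1 member, ALDH1A1. In PANC1 edgeR called 1 against 0.598%, and DESeq2 called 2. The mCherry + M2rtTA groups against mCherry gave 0 members and 0% of genes in both KP4 and PANC1, with 919 and 812 genes at an unadjusted p under 0.05 and 0 members by DESeq2. Across the untreated lines all 10 members were called for any difference, where 57.8% of genes were. In the 10 pairs of lines, 70 of 100 member-by-pair tests were called, where between 20.2% and 32.5% of all genes were called per pair. The untreated PK45H libraries entered the contrast that chose AKR1C2, so both counts include values used in that choice.

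Other genes of the pathway were read from fixed lists. Of 7 regulators tested, 3 rose with OVOL2 over the lines without M2rtTA and 4 with it, and 0 fell, where 18.1% and 32.9% of all genes were called in either direction. The median log2 fold change was 0.45 and 0.29, against 0.00 and 0.03 over all genes. MAFG, a small MAF partner of NRF2, rose by 0.56 (SE 0.13, adjusted p 0.0013) with M2rtTA. Without M2rtTA its value was 0.46 (adjusted p 0.014), a call lost without KP4 OVOL2 replicate 2 (0.055). SQSTM1, the autophagy receptor p62 that binds KEAP1, rose by 0.29 (SE 0.07, adjusted p 0.0025), and by 0.60 (adjusted p 1.5e-07) without M2rtTA. KEAP1 rose by 0.39 (SE 0.12, adjusted p 0.011). In the single lines with M2rtTA, SQSTM1 was called in KP4, at 396.3 ± 8.08 against 221.3 ± 37.1 CPM. It was not called in PANC1 or PK45H. PANC1 had 227.2 ± 11.4 against 236.1 ± 44.9 CPM and PK45H 193.0 ± 17.6 against 188.6 ± 6.44 CPM. Of the regulators, 3 were called higher in KP4, 1 in PANC1 and 0 in PK45H, where 22.4%, 13.9% and 15.9% of all genes were called. NFE2L2 itself was not called, at -0.17 (SE 0.17) with M2rtTA and -0.09 (SE 0.17) without.

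Of 35 further NRF2 targets, 34 were tested over the lines. Without M2rtTA 11 rose and 4 fell (median 0.11, against 0.00 over all genes), and with M2rtTA 6 rose and 8 fell (median 0.04, against 0.03). The shares of all genes called were 18.1% and 32.9%, so that 14 of 34 with M2rtTA is to be read against 32.9%. FTH1 and FTL, the ferritin chains that store iron, rose by 0.95 (SE 0.06, adjusted p 6.5e-15) and 0.85 (SE 0.09, adjusted p 1.4e-09) with M2rtTA. Both have processed copies elsewhere in the genome that can share reads. In PK45H, FTH1 went from 825.7 ± 63.4 to 1925 ± 197 CPM with M2rtTA. OSGIN1, an oxidative stress response gene, rose by 1.499 (SE 0.19, adjusted p 1.6e-07), and by 1.76 without M2rtTA. ABCC3, an exporter of conjugates, rose by 0.98 (SE 0.10, adjusted p 1.8e-09), from 35.8 ± 6.40 to 160.1 ± 31.99 CPM in PK45H. KP4 went from 15.3 ± 1.76 to 20.9 ± 5.71 CPM and PANC1 from 64.7 ± 8.54 to 79.2 ± 5.61 CPM. Without M2rtTA, PANC1 went from 53.9 ± 5.28 to 39.8 ± 5.20 CPM. The PK45H mCherry + M2rtTA mean was below those of mCherry (66.0 ± 7.18 CPM) and untreated PK45H (69.0 ± 4.11 CPM). Its libraries entered the contrast that chose ALDH3A1.

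Among the genes that fell with M2rtTA, TXN, the thioredoxin that TXNRD1 reduces, fell by 0.50 on the log2 scale (adjusted p 4.3e-07). PIR, an iron-binding nuclear protein, fell by 1.13 (adjusted p 3.7e-06), and PGD of the pentose phosphate pathway fell by 0.49 (adjusted p 6e-06). Without M2rtTA, TXN (0.11) and PIR (-0.09) were not called, while PGD was (-0.60, adjusted p 6.3e-07). GCLC, the catalytic partner of GCLM, gave 0.57 (adjusted p 0.013) without M2rtTA and 0.10 (not called) with it. SRXN1, which restores oxidised peroxiredoxins, gave 0.54 (adjusted p 0.00013) and -0.17 (not called). SLC7A11, the cystine importer, gave 2.24 (adjusted p 0.00037) without M2rtTA. That size rested on PANC1 OVOL2 replicate 2, at 2352 CPM where the lowest library of its group had 34.1, and it was 0.85 (adjusted p 0.015) without that library. In PK45H alone, 11 of 33 tested targets were called higher in the OVOL2 group than with mCherry and 0 lower, where 8.39% of all genes were called. Those mCherry libraries are the ones on which AKR1C2 was chosen. With M2rtTA 6 rose and 1 fell, where 15.9% were. The mCherry + M2rtTA libraries of PK45H entered the contrast that chose ALDH3A1.

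In the wider aldo-keto reductase family, AKR1B1, the aldose reductase, fell by 1.36 on the log2 scale over the lines with M2rtTA (SE 0.12, adjusted p 8.5e-11) and by 0.67 without it (adjusted p 9.8e-05). In PK45H it was 120.2 ± 12.2 CPM with mCherry and 126.8 ± 4.999 with OVOL2, and 108.8 ± 13.9 and 64.7 ± 13.2 CPM with M2rtTA. Thus in PK45H with M2rtTA it went the opposite way to the AKR1C genes (-0.74, SE 0.16, adjusted p 0.0072). AKR1E2 fell by 1.16 (SE 0.33, adjusted p 0.0064), but at low levels. With M2rtTA its means went from 2.41 to 0.762 CPM in KP4 and from 3.01 to 1.40 CPM in PK45H. In PANC1 they were 1.79 ± 1.36 and 1.06 ± 0.713 CPM. AKR1A1 rose by 0.44 (SE 0.14, adjusted p 0.016), a call lost without PANC1 OVOL2 + M2rtTA replicate 3 (0.054). Of the 5 family members tested, 1 rose and 2 fell with M2rtTA, and 0 rose and 1 fell without, where 32.9% and 18.1% of all genes were called.

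Of 14 further aldehyde dehydrogenases tested, 1 rose and 4 fell with M2rtTA, and 1 rose and 1 fell without, again where 32.9% and 18.1% of all genes were called. ALDH1A3, another maker of retinoic acid, rose by 0.41 (SE 0.13, adjusted p 0.011) and by 0.73 (adjusted p 5.5e-05) without M2rtTA. In PK45H its values were 0.91 (adjusted p 0.0020) with M2rtTA and 1.69 (adjusted p 3e-05) without. ALDH3A2, which oxidises fatty aldehydes, fell by 0.52 (SE 0.12, adjusted p 0.0012). With M2rtTA it went from 33.2 ± 5.165 to 13.7 ± 0.741 CPM in KP4. The changes were smaller in PANC1 (6.63 ± 1.45 to 6.16 ± 0.736 CPM) and PK45H (16.1 ± 3.04 to 14.1 ± 4.09 CPM). Without M2rtTA, PK45H went from 17.8 ± 2.04 to 24.2 ± 2.77 CPM. ALDH9A1 fell by 0.57 (SE 0.16, adjusted p 0.0060). ALDH7A1 fell by 0.24 (SE 0.09, adjusted p 0.031). The ALDH7A1 call was lost without any 1 of 7 libraries, each with M2rtTA: KP4 mCherry replicate 1, KP4 OVOL2 replicate 3, PANC1 mCherry replicate 1, PANC1 OVOL2 replicate 2, PK45H mCherry replicates 1 and 2, and PK45H OVOL2 replicate 1. Its adjusted p was then 0.050 to 0.101. Leaving out 1 of the first 4 or PK45H mCherry + M2rtTA replicate 1 left 3 calls in this family.

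Genes with the pattern most like these were ranked by Pearson correlation of log2 CPM over the 17 group means, among 10279 genes with a mean of at least 5 CPM. The groups of 1 line share their cells, so these values describe and carry no test. Nearest to the AKR1C sum were STON2 (r = 0.95), IL2RG (0.95), GNAS (0.94), SERPINB5 (0.94) and ARPC4 (0.94). IL2RG, for example, was 188.3 ± 5.60 CPM in untreated PATU8988S, 26.1 ± 9.71 in HPAFII, 15.3 ± 6.69 in PK45H and 4.67 ± 1.36 in KP4. Nearest to ALDH3A1 were the duct keratin KRT7 (0.97), SAMD9 (0.94), THBD (0.94) and the long noncoding RNAs SLC44A3-AS1 (0.94) and LINC01133 (0.93). KRT7 was 4093 ± 1680 CPM in untreated HPAFII, 1490 ± 32.6 in PK45H and 843.2 ± 22.4 in PATU8988S. It was under 200 CPM on average in untreated KP4 and PANC1. AKR1C2 and AKR1C3 each followed the AKR1C sum, of which they are part, at r = 0.98 and 0.99, while NQO1 followed it at 0.51.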

How the data were processed

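The deposited table held whole-number counts per gene symbol for 51 libraries, and the authors' columns were matched to samples by the library name in each sample's description. The submitters' processing notes name kallisto 0.44.0 and GRCh38. How its estimated counts became whole numbers, and whether strand was used, is not given in the sources used here. Library totals ran from 1165399 to 7490556 counts. Intervals from so few libraries are wide, and low counts limit AKR1C in KP4 and PANC1.

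Counts were analysed as deposited with edgeR 4.0.16 in R 4.3.3 (TMM scaling, filterByExpr, quasi-likelihood test, Benjamini-Hochberg over all genes, threshold 0.05). Each transduced line was fitted with its 15 libraries, the 3 lines together with 45, and the untreated lines with 15. For the AKR1C sum, the 3 rows were replaced by their sum. Levels are CPM on 1 TMM scale, and log2 levels used a prior count of 2. The procedure was tested on simulated data. Alternatives were DESeq2 1.42.0, RLE scaling, other filters, other sets of libraries, the replicate number as a block, and each library left out in turn.

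The members, gene lists and markers were chosen with earlier results of these data known. The genes named were the 10 members and 2 paralogs, up to 3 genes per direction and list with the smallest p for the mean over lines with M2rtTA, NFE2L2, KEAP1, GCLC, SLC7A11, SRXN1 and OSGIN1, and the 5 most similar patterns. 1 listed regulator was not analysed here. Marker lists covered duct, acinar, hepatocyte, fibroblast, and leukocyte and endothelial cells.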

Additional observations from a re-analysis of the deposited data

Results flagged for a closer look

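The test of a difference between KP4, PANC1 and PK45H in the effect of OVOL2 against mCherry called several members. It was edgeR's test of the difference itself, with Benjamini-Hochberg adjustment over all genes. Without M2rtTA the adjusted p was 5.42e-05 for the AKR1C sum, 0.000271 for AKR1C2 and 0.00484 for AKR1C3. The log2 fold changes of the sum were -0.15 in KP4, 0.14 in PANC1 and 2.56 in PK45H. The PK45H mCherry libraries in this comparison are those on which AKR1C2 was chosen, so nothing is read from these values. With M2rtTA the adjusted p was 0.00581 for the AKR1C sum and 0.0160 for AKR1C2, with log2 fold changes of the sum of 0.23, 0.05 and 1.75. The PK45H mCherry + M2rtTA libraries in this comparison entered the control contrast that chose ALDH3A1. The call of the sum was lost when only the compared groups were fitted (adjusted p 0.059). That of AKR1C2 was lost without PK45H mCherry + M2rtTA replicate 2 (0.052) or replicate 3 (0.055). HMOX1 had an adjusted p of 0.0158 with M2rtTA, with log2 fold changes of 0.95 in KP4, 1.53 in PANC1 and 0.05 in PK45H. That call was lost without PK45H mCherry + M2rtTA replicate 1 (0.069) or PK45H OVOL2 + M2rtTA replicate 3 (0.060). It was also lost when only the compared groups were fitted (0.075). TXNRD1 had an adjusted p of 0.000821 with M2rtTA, with log2 fold changes of -0.68, 0.36 and 0.04.

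In KP4 the OVOL2 effect on ALDH1A1 differed with and without M2rtTA (adjusted p 0.00325, edgeR), with log2 fold changes of -1.38 and 0.03. That call was lost in an edgeR fit of all 51 libraries (adjusted p 0.17).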

How the results depend on the processing

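No called value reversed its direction under any alternative run. Over 96 fits that left out a library, 2677 values kept their side of the threshold, 46 lost a call and 10 gained one. Under the other alternatives 1532 kept it, 14 lost a call and 15 gained one. Of 2565 comparisons uncalled both ways, 172 changed sign. Counts of members called moved as follows. In a fit of all 51 libraries the M2rtTA change of the OVOL2 effect in KP4 called 0 in place of 1. With DESeq2, mCherry against untreated called 1 in KP4 in place of 0 and 2 in PANC1 in place of 1, and the difference between lines without M2rtTA called 4 in place of 2. For PANC1 mCherry against untreated, RLE scaling, no filter, only the groups compared, and the replicate block each called 0. Of the ALDH family with M2rtTA, RLE scaling and only the groups compared called 3 in place of 5. With only the groups compared, the AKR1C sum differed between lines with M2rtTA at an adjusted p of 0.0594 by edgeR. The cause of these changes was not tested. Leaving out 1 library gave 1 to 2 calls for OVOL2 in KP4, 3 to 5 with M2rtTA, 1 for OVOL2 in PANC1, 0 to 1 for PANC1 mCherry against untreated, and 3 to 6 in the ALDH family with M2rtTA. Where this left a group with fewer libraries, the fit pooled the spread over groups.

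Replicate numbers did not pair the libraries: correlations of same-numbered libraries ran from -0.18 to 0.15, and 3 of 15 in KP4, 8 of 15 in PANC1 and 2 of 15 in PK45H correlated best with their own number. With the replicate block, by edgeR, HMOX1 in PANC1 mCherry against untreated had an adjusted p of 0.0533, and AKR1C3 over the lines with M2rtTA 0.0488. Counting depth limits AKR1C in KP4 and PANC1, with 10 to 49 summed counts per library.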
